A study of Mus musculus with 9 samples.

Results

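The 10 genes described here encode the early inflammatory cytokines of the interleukin-1 and tumour necrosis factor (TNF) systems and the parts that release or restrain them: Tnf, Il1a, Il1b, Il1rn, Il6, Il18, Nlrp3, Casp1, Nfkbia and Tnfaip3. They were taken by symbol from a table of 55851 mouse genes, where each matched a single row. All 10 had a level above the minimum set for testing, a mean of 0.2 FPKM over the libraries (reads scaled to gene length and library size), which 17716 genes reached. RNA came from total lung cells of C57BL/6J females, sequenced as 9 libraries with 7 weeks as the time label, 3 to a group. The groups were wild-type mice challenged with saline (WT PBS, libraries 1, 2 and 3), wild-type mice challenged with the allergen ovalbumin (WT OVA, libraries 5, 6 and 9), and mice without DJ-1, also ovalbumin-challenged (DJ-1 KO OVA, with library names DJ1_KO_OVA_263, DJ1_KO_OVA_266, DJ1_KO_OVA_267). Values of a group follow these orders. DJ-1 is the product of Park7 and protects cells from oxidative stress. The labels say neither that a library is 1 animal nor how the knockout was made, and all 3 groups share the C57BL/6J background. The 9 libraries include no knockout group with saline. A difference between knockout and wild type may therefore exist with or without ovalbumin, and the 2 cannot be told apart.

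As background, interleukin-1 alpha and beta act on 1 signalling receptor, Il1r1, which the antagonist Il1rn blocks; the decoy receptor Il1r2 binds the ligands without signalling. Interleukin-1 beta and interleukin-18 are made as inactive precursors, which caspase-1 cuts once a sensor such as Nlrp3 has assembled an inflammasome. Receptors for TNF and interleukin-1 switch on the transcription factor NF-kB, which raises the genes of many cytokines together with its own inhibitors: Nfkbia encodes the protein that holds NF-kB in the cytoplasm, and Tnfaip3 encodes A20, a ubiquitin-editing enzyme that shuts down signalling from these receptors. In the lung, macrophages and neutrophils are sources of interleukin-1 beta and TNF, and epithelial cells also hold interleukin-1 alpha and interleukin-18.

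The reads recovered from the FPKM, summed over all genes of the table, came to 20812192 to 29080130 per library. Park7 had means of 46.7 and 57.2 FPKM in the saline and challenged wild type and 5.08 FPKM in the knockout, so the knockout libraries matched their labels. Markers of lung epithelium, endothelium, macrophages, neutrophils, lymphocytes and mast cells were detected in all 9 libraries, except Ms4a2, a mast cell and basophil marker, which was at 0 FPKM in WT PBS replicate 1, at most at 0.316 FPKM elsewhere, and too low to be tested. Several marker lists differed with the knockout. Summed over 12 genes, neutrophil markers were at 8794 to 24871 FPKM in WT PBS, 13202 to 19404 in WT OVA and 1480 to 4500 in DJ-1 KO OVA. S100a9, with means of 10084, 9588 and 1442 FPKM, and S100a8, with means of 5035, 5104 and 685 FPKM, made up most of this sum. All 12 had negative log2 differences from WT OVA, and 8, Ly6g and S100a8 among them, fell. Cxcr2, Csf3r, Cd177 and Ltf did not pass. The 8 lung epithelium markers summed to 45537 to 83206, 63888 to 141213 and 31763 to 45684 FPKM in the same order. Most of this was Scgb1a1, with means of 39795, 65687 and 27171 FPKM, and Sftpc, with means of 28415, 34647 and 9335 FPKM. Against WT OVA all 8 had negative log2 differences and 2, Hopx and Ager, fell, beside 8.24% of all genes called lower. The 8 T cell markers summed to 113 to 162, 109 to 167 and 186 to 536 FPKM, and the 5 B cell markers to 296 to 342, 268 to 357 and 85.4 to 215 FPKM. Against WT OVA, 4 of the T cell markers rose, beside 5.93% of all genes called higher, and 3 of the B cell markers fell, beside 8.24% called lower. The T cell sum was 536 FPKM in DJ1_KO_OVA_263, 186 in DJ1_KO_OVA_266 and 218 in DJ1_KO_OVA_267. Cd8a, 1 of its genes, was at 83.0, 6.26 and 6.28 FPKM in these libraries, beside a mean of 5.50 FPKM in WT OVA. The 10 alveolar macrophage markers summed to 2267 to 3603, 3440 to 14102 and 10902 to 33862 FPKM, of which Chil3 alone made up means of 1803, 8200 and 21592 FPKM. Against WT OVA 7 of the 10 had negative log2 differences (median -0.13), Ear1, Fabp1 and Marco fell, and Chil3 did not pass (limma adjusted p = 0.14). In bulk lung RNA, fewer cells of a type and less RNA per cell cannot be told apart, and the part these shifts played in the values below was not tested.

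NF-kB binds short DNA elements known as kappa-B sites. The RefSeq promoter table (GRCm38.p6) held windows for all 10 genes, 14 in all, and the 250 bases before each transcript start were searched on both strands for the letters GGNNTTTCC and for the looser GGNNTTNCC, which contains the first. Of 32851 such windows for all genes, 4.93% held the first motif and 13.5% the looser one, and 0.198% and 1.49% held it 2 or more times. A match was found in 5 of the 10 genes: Nfkbia, Tnfaip3, Il6, Nlrp3 and Il1rn. This count takes a match in any window of a gene, whereas the shares are per window, so they are not on the same footing. Il1rn and Tnfaip3 also had windows without a match. The windows of Tnf, Il1a, Il1b, Il18 and Casp1 held neither set of letters. Shown here are 2 inhibitors of NF-kB that each have 2 matches, Il6 with 1, and Il18, the gene with the largest difference between groups. Capitals mark the looser motif; each sequence runs from 5′ to 3′ and ends at the last base before the transcript start, whole for 3 genes and for Tnfaip3 the last 30 bases, which hold both of its matches. They lie at chr12:55492648-55492897 (minus strand) for Nfkbia, chr10:19015411-19015440 (minus strand) for Tnfaip3, chr5:30012864-30013113 (plus strand) for Il6 and chr9:50554450-50554699 (plus strand) for Il18.
Nfkbia: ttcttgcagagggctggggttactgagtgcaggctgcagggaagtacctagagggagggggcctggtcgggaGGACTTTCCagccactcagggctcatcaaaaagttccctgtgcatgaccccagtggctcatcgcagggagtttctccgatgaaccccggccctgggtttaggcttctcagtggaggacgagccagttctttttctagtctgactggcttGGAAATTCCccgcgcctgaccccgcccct
Tnfaip3: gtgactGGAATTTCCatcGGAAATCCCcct
Il6: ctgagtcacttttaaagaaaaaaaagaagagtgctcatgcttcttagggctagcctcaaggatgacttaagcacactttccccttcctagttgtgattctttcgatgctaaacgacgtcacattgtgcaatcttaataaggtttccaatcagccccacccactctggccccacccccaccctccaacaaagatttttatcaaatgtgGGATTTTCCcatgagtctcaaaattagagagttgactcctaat
Il18: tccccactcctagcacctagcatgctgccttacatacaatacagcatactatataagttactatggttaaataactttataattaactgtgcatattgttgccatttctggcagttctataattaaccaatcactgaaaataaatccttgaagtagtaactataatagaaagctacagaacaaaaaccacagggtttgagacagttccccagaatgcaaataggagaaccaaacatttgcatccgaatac
The matches begin 178 and 29 bases before the start of Nfkbia, 24 and 12 bases before that of Tnfaip3 and 43 bases before that of Il6. For Tnfaip3 the positions refer to 1 RefSeq start, and the printed stretch lies inside the gene span given below. A match is a description of letters only. Binding was not measured, and the genes with a match did not move alike, as the values below show.

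Per length of gene, the 10 transcripts covered a wide range of levels. In WT PBS the order by mean FPKM was Il1b, Nfkbia, Tnf, Tnfaip3, Il1a, Nlrp3, Il18, Il6, Il1rn and Casp1, from 2031 FPKM for Il1b to 15.4 FPKM for Casp1. Il1b stood above all 3 libraries of each other gene, whereas Nfkbia and Tnf, Tnfaip3 and Il1a, Il1a and Nlrp3, and Il18, Il6 and Il1rn overlapped between neighbours. By mean level Il1b ranked 16 among all genes in saline wild type, 29 in challenged wild type and 45 in the knockout. Its message was therefore among the most abundant in every group.

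**Figure D1:**
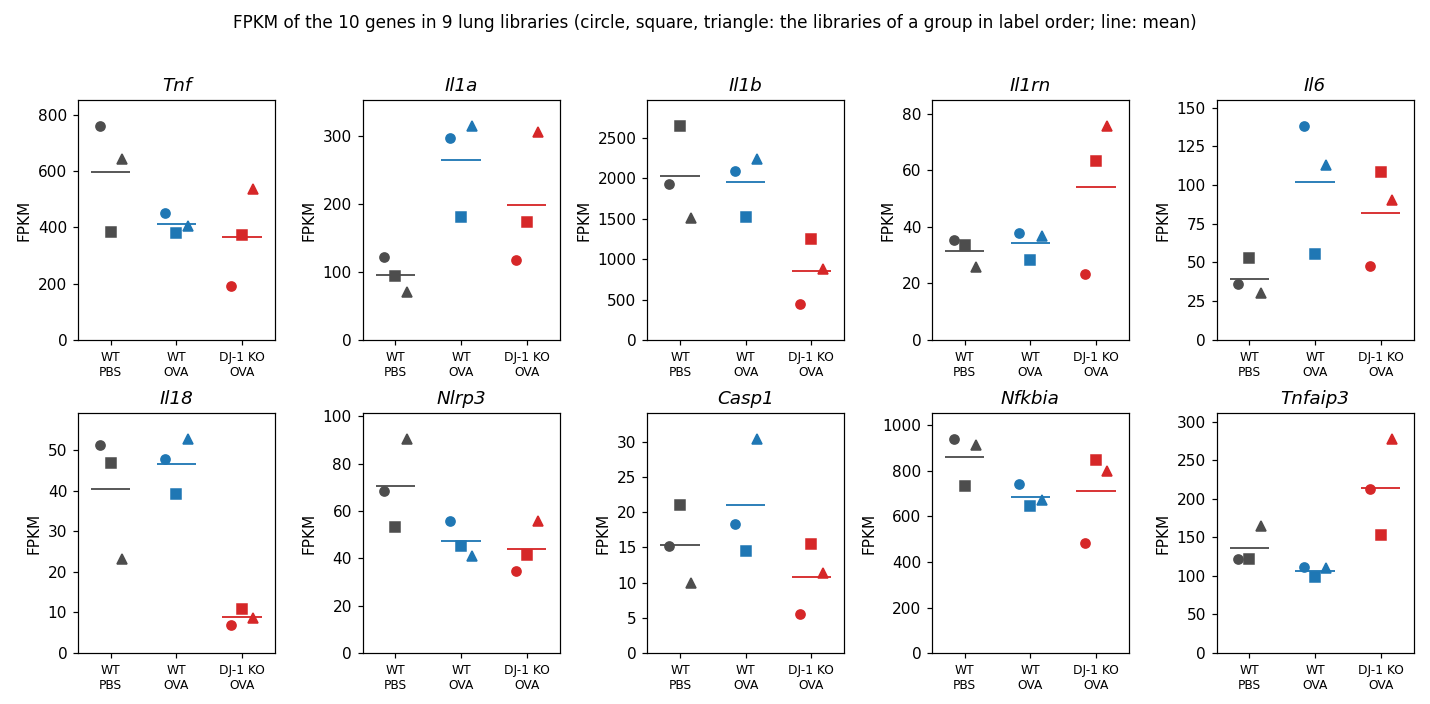
FPKM (y axis, linear, from 0) of each of the 10 genes in the 9 libraries, grouped by WT PBS, WT OVA and DJ-1 KO OVA (x axis); points are libraries and lines are group means. The 3 knockout libraries of Il18 sit between 6.88 and 10.8 FPKM, under all 6 wild-type libraries, which run from 23.3 to 52.7 FPKM.

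The first comparison asked how the genes responded to ovalbumin in wild-type lung. None of the 10 passed the test, a limma fit of log2(FPKM + 0.5) with Benjamini-Hochberg adjusted p below 0.05, and only 1 gene of the 17716 did, 0.00564% of those tested. At an unadjusted p below 0.05 there were 2 of the 10, Il1a and Il6, beside 6.47% of all genes, and limma-voom on the reads recovered from the FPKM also called 0 of the 10. In 2 of the 10, again Il1a and Il6, every challenged library lay above every saline library, which held for 7.25% of all genes, and in 1, Tnfaip3, every challenged library lay below, which held for 7.52%. The median log2 difference of the 10 was 0.04, beside 0.00 for all genes tested.

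The second comparison set the challenged knockout against challenged wild type, the contrast the study's title points to. There, 2 of the 10 passed: Il18 fell and Tnfaip3 rose. Of all genes tested, 14.2% passed, 5.93% higher and 8.24% lower, so 2 of 10 is close to the background share. At an unadjusted limma p below 0.05 there were 4 of the 10, Il1b, Il18, Casp1 and Tnfaip3, beside 35.2% of all genes. The knockout libraries lay wholly above WT OVA in 1 of the 10, Tnfaip3, beside 18.4% of all genes, and wholly below in 2, Il18 and Il1b, beside 18.8%. The median log2 difference was -0.29, beside 0 for all genes. Among all genes 41.9% of the calls were higher in the knockout, and after scaling the libraries to equal FPKM sums 88.0% were.

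The third comparison, DJ-1 KO OVA against WT PBS, differs in genotype and challenge at once and shares its libraries with the other comparisons. Il18 fell, and the other 9 did not pass. The background was 8.54% of all genes, 4.07% higher and 4.47% lower. At an unadjusted limma p below 0.05 there were 6 of the 10, beside 26.4% of all genes. Of these, Il1a, Il6 and Tnfaip3 were higher and Il1b, Il18 and Nlrp3 lower. No gene of the 10 had knockout libraries wholly above WT PBS, beside 12.7% of all genes, and 2, Il18 and Il1b, had them wholly below, beside 12.9%. The median log2 difference was -0.43. Here 47.7% of the calls over all genes were higher, and 69.1% after scaling to equal sums.

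**Figure D2:**
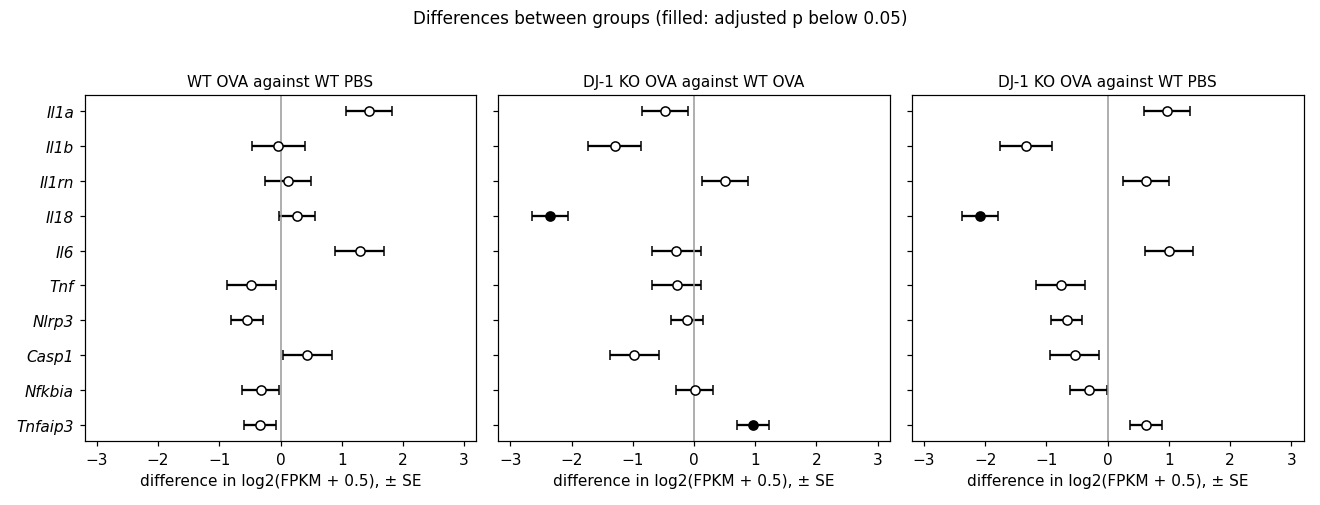
Group differences in log2(FPKM + 0.5) (x axis) for the 10 genes (y axis) in the 3 comparisons; points are estimates, bars are the standard error from limma, and filled points have an adjusted p below 0.05. Il18 is the filled point furthest from 0 in both knockout comparisons, at -2.35 and -2.08, and Tnfaip3 is filled at 0.96 in the middle panel.

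Il18 (ENSMUSG00000039217, chr9:50554827-50581840, plus strand) encodes interleukin-18, an activator of interferon-gamma production by T and natural killer cells. It stood at 51.3, 46.8 and 23.3 FPKM in the WT PBS libraries, 47.6, 39.2 and 52.7 FPKM in WT OVA, and 6.88, 10.8 and 8.64 FPKM in DJ-1 KO OVA. Both wild-type groups overlapped each other, and all 3 knockout libraries were far below them. Against WT OVA the level fell by 2.35 on the log2 scale (SE 0.30), which is 5.11-fold lower, with a limma adjusted p of 0.0033. Against WT PBS it fell by 2.08 (4.24-fold lower, limma adjusted p = 0.0042). The values rest on 218 to 1130 reads per library. This call passed in all 17 other settings of scaling, filter, model and left-out library in both comparisons, with limma adjusted p from 0.00086 to 0.019 and from 0.0015 to 0.026. After scaling to equal FPKM sums the log2 difference from WT OVA was -1.75. Bco2 and Tex12, on the other strand, overlap the gene and reached at most 1.36 FPKM, and the sources used here do not say whether counting took account of strand. The summed lung epithelium and neutrophil markers were lower in the knockout libraries too than in WT OVA, and their part in this result was not tested.

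Neither the receptor nor the natural inhibitor of interleukin-18 passed the test. Il18r1, the ligand-binding receptor chain, had means of 7.39, 10.8 and 7.83 FPKM (WT PBS, WT OVA, DJ-1 KO OVA), and did not pass (limma adjusted p = 0.19 against WT OVA). Il18bp, the secreted protein that neutralises interleukin-18, had means of 1.43, 2.31 and 3.22 FPKM, also without passing (limma adjusted p = 0.37). The ratio of Il18bp to Il18 within a library removes any scaling between libraries. It was 0.031, 0.028 and 0.060 in WT PBS, 0.046, 0.036 and 0.063 in WT OVA, and 0.26, 0.38 and 0.43 in DJ-1 KO OVA. The knockout ratios were all above the wild-type ones, on average 7.45-fold above WT OVA, with an exact two-sided permutation p of 0.1, the smallest that 3 libraries against 3 can give.

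Il1b (ENSMUSG00000027398, chr2:129364570-129371139, minus strand) encodes interleukin-1 beta, the inducible ligand that needs caspase-1. Its libraries were at 1926, 2654 and 1513 FPKM in WT PBS, 2094, 1527 and 2237 FPKM in WT OVA, and 442, 1247 and 876 FPKM in DJ-1 KO OVA. The wild-type groups overlapped and the knockout libraries were all lower. The means were 2031 ± 577, 1952 ± 376 and 855 ± 403 FPKM in the same order (SD, n = 3 each). The log2 difference from WT OVA was -1.30 (SE 0.43), 2.46-fold lower, and did not pass (limma adjusted p = 0.066). It passed in 3 of 17 other settings: a filter at a mean of 1 FPKM (0.049), limma-voom on recovered reads (0.037) and without DJ1_KO_OVA_266 (0.015). Against WT PBS the difference was -1.33, with a limma adjusted p of 0.084, which passed in 4 of 17: equal FPKM sums (0.041), quantile normalization (0.028), limma-voom (0.044) and again without DJ1_KO_OVA_266 (0.021). After scaling to equal sums the difference from WT OVA shrank to -0.68, and after quantile normalization to -0.49. Il1bos, an antisense gene over Il1b, was at most at 1.98 FPKM. The summed neutrophil markers were also lowest in the 3 knockout libraries, and their part in the Il1b values was not tested.

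Il1a (ENSMUSG00000027399, chr2:129299610-129309972, minus strand), its neighbour 54597 bases away, encodes interleukin-1 alpha, which is active without caspase-1 and is released by damaged cells. It had 123, 94.7 and 71.1 FPKM in WT PBS, 298, 181 and 316 FPKM in WT OVA, and 118, 174 and 306 FPKM in DJ-1 KO OVA. All challenged wild-type libraries were above the saline ones, and the knockout libraries spread from within the saline range to within the challenged range. The log2 difference of WT OVA from WT PBS was 1.45 (SE 0.38), 2.73-fold, the largest of the 10 genes in that comparison, but with 17716 genes tested the limma adjusted p was 0.72. The knockout difference was -0.48 from WT OVA (limma adjusted p = 0.38) and 0.97 from WT PBS (limma adjusted p = 0.13). The second of these passed under equal FPKM sums (0.036) and quantile normalization (0.037), while the first turned to 0.14 and 0.11. Gm14023, on the other strand, overlaps Il1a and reached at most 3.23 FPKM.

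The 2 interleukin-1 ligands were also compared within each library. Il1b exceeded Il1a 15.7, 28.0 and 21.3 times in WT PBS, 7.03, 8.44 and 7.09 times in WT OVA, and 3.75, 7.16 and 2.86 times in DJ-1 KO OVA. The ratio was 2.81-fold lower in WT OVA than in WT PBS with no overlap (exact two-sided permutation p = 0.1, the smallest possible here). Between DJ-1 KO OVA and WT OVA it overlapped (exact permutation p = 0.3). It was 4.96-fold lower in DJ-1 KO OVA than in WT PBS, again without overlap (exact permutation p = 0.1).

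Il1rn (ENSMUSG00000026981, chr2:24336853-24351494, plus strand) encodes the receptor antagonist. It stood at 35.2, 33.6 and 25.7 FPKM in WT PBS, 37.6, 28.4 and 36.8 FPKM in WT OVA, and 23.4, 63.2 and 75.7 FPKM in DJ-1 KO OVA. DJ1_KO_OVA_266 and DJ1_KO_OVA_267 were above every wild-type library and DJ1_KO_OVA_263 was the lowest of the 9. The log2 difference from WT OVA was 0.50 (limma adjusted p = 0.36), and without DJ1_KO_OVA_263 it was 1.01 and passed (0.033). It also passed with equal FPKM sums, at 1.11 (limma adjusted p = 0.026), a scale on which 25.0% of all genes were called higher. From WT PBS it was 0.62 (limma adjusted p = 0.32), and without DJ1_KO_OVA_263 it was 1.14 (0.019). Measured within each library against Il1b, the antagonist was at 0.018, 0.013 and 0.017 in WT PBS, 0.018, 0.019 and 0.016 in WT OVA, and 0.053, 0.051 and 0.086 in DJ-1 KO OVA. Here DJ1_KO_OVA_263 stood with the other knockout libraries: the ratio was 3.48-fold higher than in WT OVA and overlapped with neither wild-type group (exact two-sided permutation p = 0.1, the smallest possible).

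The receptors of interleukin-1 passed the test in opposite directions. Il1r1, the signalling receptor, was at 3.80, 3.88 and 3.53 FPKM in WT PBS, 3.27, 4.27 and 3.65 FPKM in WT OVA, and 7.06, 6.20 and 7.61 FPKM in DJ-1 KO OVA. Il1r2, the decoy, was at 98.0, 115 and 87.5 FPKM, then 75.6, 75.0 and 66.7 FPKM, then 29.0, 52.1 and 35.5 FPKM in the same order. Neither gene's knockout libraries overlapped with the wild-type ones. Against WT OVA, Il1r1 rose 1.77-fold (limma adjusted p = 0.02) and Il1r2 fell, 1.91-fold lower (limma adjusted p = 0.034). The decoy outnumbered the receptor 24.8 to 29.7 times in WT PBS, 17.6 to 23.1 times in WT OVA and 4.10 to 8.39 times in DJ-1 KO OVA, so none of the 3 groups overlapped with another. The ratio was 1.37-fold lower in WT OVA than in WT PBS, and 3.59-fold lower in DJ-1 KO OVA than in WT OVA (exact permutation p = 0.1 for each, the smallest possible). Il1rap, the shared co-receptor, did not pass, at 2.31, 1.91 and 2.68 FPKM. The neutrophil marker sum given above was, like Il1r2, lowest in the knockout libraries, and its part in this result was not tested.

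**Figure D3:**
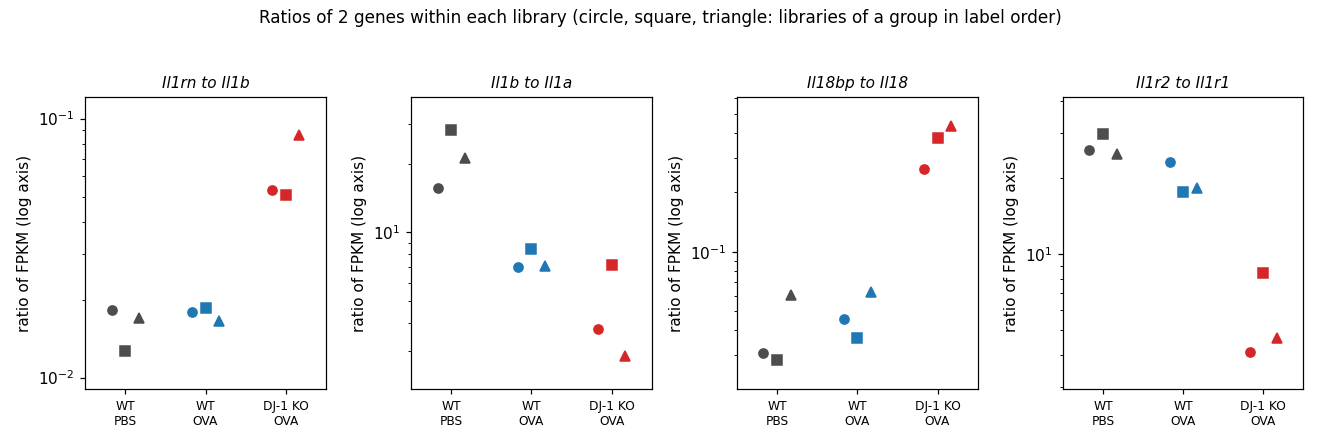
Ratio of the FPKM of 2 genes within each library (y axis, log scale) for Il1rn to Il1b, Il1b to Il1a, Il18bp to Il18 and Il1r2 to Il1r1, by group (x axis); each point is a library. In 3 of the 4 panels the knockout libraries stand apart from both wild-type groups, and Il1b to Il1a is the panel where knockout and WT OVA overlap.

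Tnf (ENSMUSG00000024401, chr17:35199381-35202007, minus strand), the main ligand of the TNF receptors, was at 761, 384 and 644 FPKM in WT PBS, 452, 378 and 405 FPKM in WT OVA, and 190, 374 and 536 FPKM in DJ-1 KO OVA. All 3 groups overlapped. The log2 difference between the wild-type groups was -0.48, and the knockout differed by -0.29 from WT OVA and by -0.77 from WT PBS, with limma adjusted p of 0.75, 0.63 and 0.25. The second turned to 0.33 after scaling to equal sums and to 0.44 after quantile normalization. Of its receptors, Tnfrsf1a, the widely expressed one with a death domain, had means of 118, 79.5 and 63.8 FPKM and did not pass. Tnfrsf1b, the receptor mostly on leukocytes and endothelium, had means of 141, 96.8 and 50.8 FPKM. It fell in DJ-1 KO OVA against WT PBS, 2.77-fold lower (limma adjusted p = 0.022), and did not pass against WT OVA (limma adjusted p = 0.065).

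Il6 (ENSMUSG00000025746, chr5:30013114-30019981, plus strand), a cytokine downstream of both interleukin-1 and TNF, was at 35.9, 52.6 and 30.1 FPKM in WT PBS, 138, 55.3 and 113 FPKM in WT OVA, and 47.8, 109 and 90.3 FPKM in DJ-1 KO OVA. The challenged wild-type libraries were all above the saline ones, library 6 by little, and the challenged groups overlapped. WT OVA was 2.46-fold above WT PBS (log2 difference 1.30, SE 0.40), which did not pass (limma adjusted p = 0.73). The knockout differed from WT OVA by -0.29 (limma adjusted p = 0.63), a sign that turned under equal sums (0.33), quantile normalization (0.05) and without DJ1_KO_OVA_263 (0.06). From WT PBS it differed by 1.00 (limma adjusted p = 0.14), which passed with equal sums (0.028) and quantile normalization (0.037). The shared signalling chain Il6st rose in the knockout, from 11.9 to 22.9 FPKM against WT OVA (1.86-fold, limma adjusted p = 0.028). The ligand-binding Il6ra, at 10.8, 6.30 and 7.38 FPKM, did not pass.

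Of the inflammasome members, neither the sensor nor the enzyme passed in any comparison. Nlrp3 (ENSMUSG00000032691, chr11:59541568-59566956, plus strand) was at 68.4, 53.3 and 90.4 FPKM in WT PBS, 55.8, 45.3 and 40.9 FPKM in WT OVA, and 34.8, 41.5 and 55.8 FPKM in DJ-1 KO OVA. Casp1 (ENSMUSG00000025888, chr9:5298508-5307290, plus strand), which encodes caspase-1, was at 15.2, 21.0 and 9.96 FPKM, then 18.3, 14.5 and 30.4 FPKM, then 5.51, 15.5 and 11.4 FPKM. The groups overlapped for both genes in all 3 comparisons. The knockout log2 difference from WT OVA was -0.12 for Nlrp3 (limma adjusted p = 0.77) and -0.98 for Casp1 (0.11), and without DJ1_KO_OVA_266 Casp1 passed at -1.28 (0.04). Under equal FPKM sums and quantile normalization the Nlrp3 difference turned to 0.50 and 0.15.

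Il18 and its processing machinery can be set side by side. Against the 5.11-fold lower Il18, the adaptor Pycard, which joins sensor and caspase, had means of 10.1 FPKM in WT OVA and 6.81 FPKM in DJ-1 KO OVA (limma adjusted p = 0.3). The pore-forming Gsdmd, which caspase-1 also cuts, had 34.1 and 22.7 FPKM (limma adjusted p = 0.14). Neither passed. Ninj1, which ruptures the membrane of dying cells, fell from 123 to 49.8 FPKM (2.86-fold lower, limma adjusted p = 0.04), with knockout libraries at 21.7, 88.4 and 39.2 FPKM. P2rx7, the ATP receptor that can trigger Nlrp3, rose from 2.55 to 5.50 FPKM (1.90-fold, limma adjusted p = 0.041). The inflammasome list held 20 genes, of which 18 were testable. Of these, 1 rose and 2 fell against WT OVA, Il18 among them, which is 16.7% beside 14.2% of all genes. The median log2 difference was -0.34.

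Tnfaip3 (ENSMUSG00000019850, chr10:19000910-19015657, minus strand) was at 122, 122 and 164 FPKM in WT PBS, 112, 98.9 and 110 FPKM in WT OVA, and 213, 153 and 278 FPKM in DJ-1 KO OVA. The challenged wild-type libraries were the lowest and closest together, all below saline, and the knockout libraries were all above them, although DJ1_KO_OVA_266, at 153 FPKM, lay within the saline range. Against WT OVA it rose by 0.96 on the log2 scale (SE 0.26), 1.95-fold, with a limma adjusted p of 0.038. The call held in 9 of 17 other settings and ended in 8. It ended with no filter (0.074), with only the 2 groups compared (0.07), and without WT PBS replicate 1 (0.065), WT OVA replicates 5 (0.098), 6 (0.1) or 9 (0.1), or DJ1_KO_OVA_263 (0.076) or DJ1_KO_OVA_267 (0.15). The log2 difference stayed between 0.76 and 1.58 in all of them. Against WT PBS the difference was 0.63 (limma adjusted p = 0.16) with overlap, and it passed without DJ1_KO_OVA_266, at 0.85 (0.03).

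Nfkbia (ENSMUSG00000021025, chr12:55489410-55492647, minus strand), the other inhibitor with 2 kappa-B matches, was at 941, 732 and 914 FPKM in WT PBS, 743, 644 and 670 FPKM in WT OVA, and 485, 848 and 800 FPKM in DJ-1 KO OVA. The knockout libraries spanned the WT OVA range, with DJ1_KO_OVA_263 the lowest of the 9, and overlapped with WT PBS, where 2 of the 3 libraries were above all of them. The log2 difference was 0.01 from WT OVA (SE 0.31, limma adjusted p = 0.98) and -0.31 from WT PBS (limma adjusted p = 0.54). The first depended on the scale: it was 0.63 with equal FPKM sums (limma adjusted p = 0.067) and 0.78 with quantile normalization (0.057), and neither passed. On the reported scale, of the 3 genes whose matched promoters are printed above, 1 rose and 2 did not pass in the knockout against WT OVA.

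**Figure D4:**
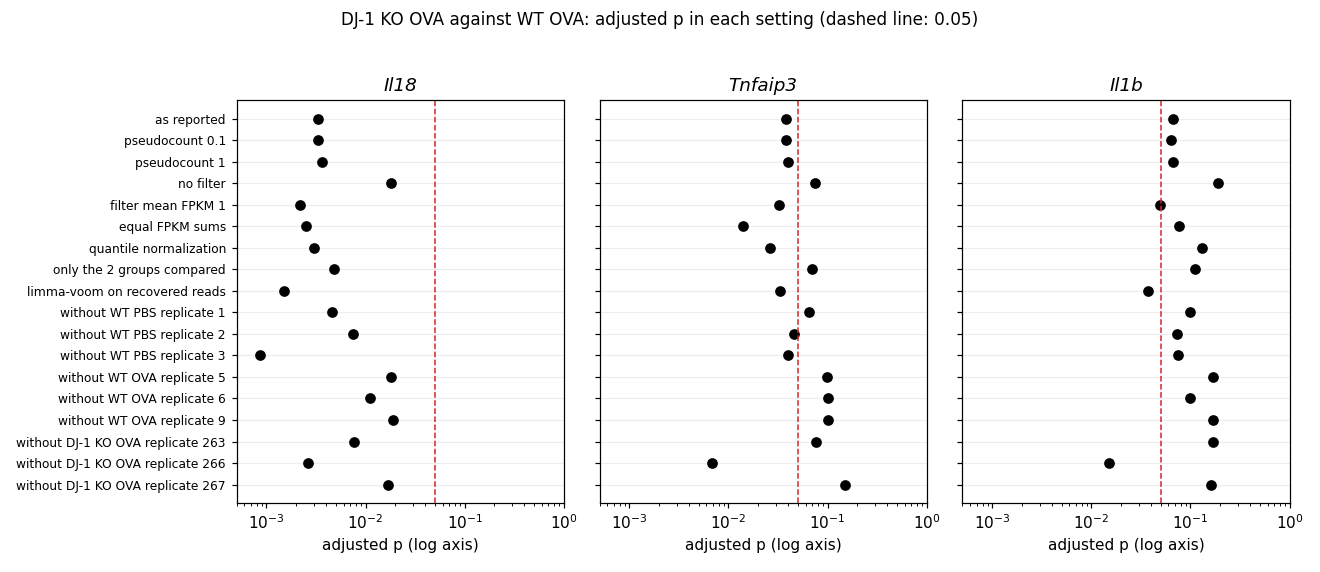
Adjusted p from limma (x axis, log scale) for Il18, Tnfaip3 and Il1b in the challenged knockout against challenged wild type, as reported and in 17 other settings (y axis); the dashed line is 0.05. Il18 lies left of the line in all settings, from 0.00086 to 0.019, Tnfaip3 runs from 0.0069 to 0.15 across it, and Il1b from 0.015 to 0.19.

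Beyond the 10, the wider pathway was followed through 8 lists with 122 testable genes. In WT OVA against WT PBS, 0 of the 122 passed in limma, 12 had an unadjusted p below 0.05 (9.84%, beside 6.47% of all genes), and limma-voom also called 0. In DJ-1 KO OVA against WT OVA, 12 passed as higher and 6 as lower, which is 14.8% of the 122 beside the background of 14.2%. At an unadjusted p below 0.05 the shares were 27.0% of the 122 and 35.2% of all genes. The median log2 difference of the 122 was 0.01. In DJ-1 KO OVA against WT PBS, 8 were higher and 6 lower, 11.5% beside 8.54%, and the unadjusted shares were 31.1% and 26.4%.

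Of the 8 lists, the interleukin-1 family held the most calls. Of 15 testable genes among 19, 3 rose and 3 fell against WT OVA (40.0%, beside 14.2% of all genes), with a median log2 difference of 0.27. Those that rose were Il33, the epithelial alarmin, from 33.7 to 86.3 FPKM (2.44-fold, limma adjusted p = 0.014), its receptor Il1rl1, from 2.09 to 7.83 FPKM (3.06-fold, 0.019), and Il1r1. Those that fell were Il18, Il1r2 and Il1f9, which encodes interleukin-36 gamma, from 29.7 to 11.5 FPKM (2.55-fold lower, limma adjusted p = 0.024). Against WT PBS the receptor of interleukin-36, Il1rl2, rose as well, from 1.65 to 3.88 FPKM (limma adjusted p = 0.022). In that comparison Il1f9 fell as well (3.31-fold lower, limma adjusted p = 0.0097), so ligand and receptor differed in opposite directions.

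In the TNF list, 3 of 18 rose and 0 fell against WT OVA in limma, 16.7% beside 14.2% of all genes, with a median log2 difference of -0.03. Ripk3, the kinase that starts necroptosis, rose from 4.56 to 12.4 FPKM (2.58-fold, limma adjusted p = 0.014) and its partner Ripk1 from 3.48 to 5.70 FPKM (1.55-fold, 0.048). Lta, the lymphotoxin ligand beside Tnf, rose from 0.861 to 1.66 FPKM (1.59-fold, 0.046) on 22 to 72 reads. The summed T cell markers were higher in the same libraries, most of all in DJ1_KO_OVA_263, as given above, and their part was not tested.

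Downstream of the receptors, the share called against WT OVA was 8.33% in the interleukin-1 receptor signalling list, 20.0% among NF-kB subunits and kinases and 6.25% among inhibitors, beside 14.2% of all genes. In the interleukin-1 receptor signalling list 1 of 12 rose, the kinase Irak1, from 9.92 to 16.7 FPKM (1.64-fold, limma adjusted p = 0.047), and 0 fell, with a median log2 difference of 0.26. Of 10 NF-kB subunits and kinases (median -0.03) 1 rose and 1 fell. Nfkb1, the gene of the p50 subunit, rose from 8.88 to 17.9 FPKM (1.92-fold, limma adjusted p = 0.042), and the kinase Map3k8 fell from 15.5 to 9.12 FPKM (1.67-fold lower, 0.042). Rela, the transactivating subunit, was at 49.0, 39.9 and 37.1 FPKM in the 3 groups and did not pass. Of 16 inhibitors Tnfaip3 was the only one called against WT OVA (median 0.16), and against WT PBS it was Tnip3, an A20-binding inhibitor, from 0.779 to 5.81 FPKM (4.33-fold, limma adjusted p = 0.023).

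Among 24 classical NF-kB target genes, 1 rose and 1 fell against WT OVA (8.33%, beside 14.2% of all genes), with a median log2 difference of -0.25. Cxcl1, a neutrophil attractant, stood at 175, 116 and 147 FPKM in WT OVA and 226, 272 and 409 FPKM in DJ-1 KO OVA, and rose 2.03-fold (limma adjusted p = 0.043). Mmp9, a matrix protease that was also on the neutrophil marker list, fell from 51.9 to 24.8 FPKM (2.13-fold lower, limma adjusted p = 0.031). Against WT PBS the monocyte attractant Ccl2 rose as well, from 41.8 to 101 FPKM (2.37-fold, limma adjusted p = 0.047). In the interleukin-6 family, Il6st was the 1 gene called of 11 against WT OVA (9.09%, beside 14.2% of all genes, median 0.42).

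The list counts depended on the scale and on single libraries. After scaling to equal FPKM sums, which moved the median of all genes by 0.46 between knockout and WT OVA, the higher and lower calls were 7 and 2 in the interleukin-1 family, 5 and 0 in the interleukin-6 family, 8 and 0 in the TNF list, 5 and 0 in interleukin-1 receptor signalling, 4 and 0 among subunits and kinases, 6 and 0 among inhibitors, 4 and 0 among targets and 1 and 2 in the inflammasome. On that scale 25.0% of all genes were called higher and 3.40% lower. The medians of the TNF, subunit, target and inflammasome lists, below 0 as reported, were above 0 on that scale, at 0.54, 0.54, 0.31 and 0.22. Of the 18 genes called against WT OVA, 15 remained under that scaling, and Il1r2, Map3k8 and Mmp9 did not. Their log2 differences shrank from -0.93 to -0.32, from -0.74 to -0.14 and from -1.09 to -0.48, with limma adjusted p of 0.19, 0.58 and 0.17. Without WT OVA replicate 5 the calls of Il18, Il33 and Ripk3 remained, with the other limma adjusted p from 0.057 to 0.14. Without replicate 6 those of Il18 and Il1r1 remained (others 0.052 to 0.13), and without replicate 9 those of Il18, Il1rl1 and Ripk3 (others 0.053 to 0.14). Without DJ1_KO_OVA_267, Il18 and Il33 remained (others 0.066 to 0.18), and without DJ1_KO_OVA_266 all 18. Without DJ1_KO_OVA_263 there were 7, Cxcl1, Il18, Il1r1, Il1rl1, Il33, P2rx7 and Ripk3 (others 0.056 to 0.11). Without WT PBS replicate 1 there were also 7, Il18, Il1f9, Il1r1, Il1rl1, Il33, Mmp9 and Ripk3 (others 0.05 to 0.079). Without WT PBS replicate 2 the calls of Lta, Ninj1 and Ripk1 ended (0.053 to 0.057), and without replicate 3 those of Cxcl1 and Ripk1 (0.052 and 0.053). With no filter 4 of the 18 remained, and with only the 2 groups compared 6. All 18 kept their direction in each of these fits, and Il18 was the only 1 of the 18 that passed in every one of the 17 settings. The direction could not change with another filter, with only the 2 groups compared or with a WT PBS library left out. Those settings leave the difference from WT OVA as it was and alter only its p-value. Of the 14 called against WT PBS, 7 to 13 remained when any 1 library was left out. There were 8 without each of WT PBS replicates 1, 2 and 3, the other limma adjusted p lying between 0.054 and 0.15. The calls of Il1r1, Il1rl2, Ripk3 and Tnip3 ended in all 3 of these, with Map3k8 and Tnfrsf1b, Ccl2 and Map3k8, or Ccl2 and Tnfrsf1b beside them. Ccl2 also ended without each WT OVA library (0.067 to 0.074) and without DJ1_KO_OVA_266 (0.052), Ripk3 without WT OVA replicate 5 (0.054) and Map3k8 without DJ1_KO_OVA_263 (0.055). The 7 without DJ1_KO_OVA_267 were Cxcl1, Il18, Il1f9, Il1r2, Il1rl1, Il33 and Mmp9, with limma adjusted p from 0.057 to 0.18 for the rest.

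**Figure D5:**
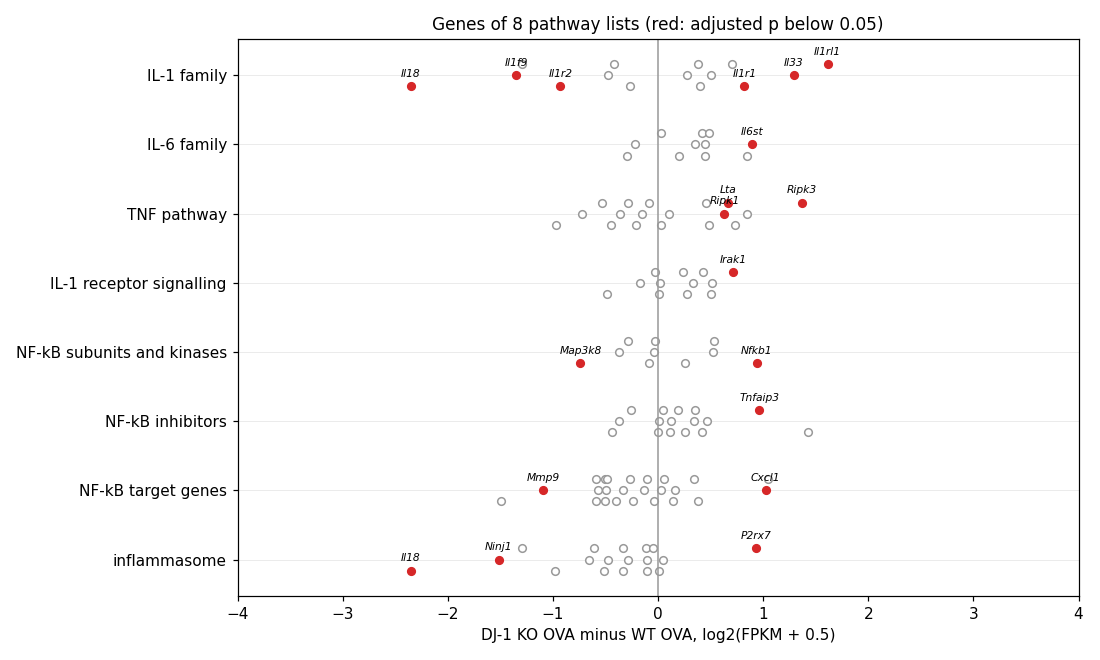
Difference of DJ-1 KO OVA from WT OVA on the log2(FPKM + 0.5) scale (x axis) for the testable genes of 8 pathway lists (y axis, points offset for legibility); red points have a limma adjusted p below 0.05. The called genes lie on both sides of 0, with Il18 at -2.35 and Il1rl1 at 1.61 as the extremes.

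Genes with the profile most like 3 of the cytokines were sought by the root-mean-square difference of log2(FPKM + 0.5), centred on each gene's mean over the 9 libraries. Closest to Il1b were Sirpb1b, Unc119 and Taldo1, at 0.16, 0.16 and 0.17. Taldo1, an enzyme of the pentose phosphate pathway, had means of 331, 319 and 146 FPKM in WT PBS, WT OVA and DJ-1 KO OVA. Closest to Tnf were Sh3bp2, Myo1f and Hlx, at 0.19, 0.19 and 0.20. Closest to Il1a were Cd200r4, Cmbl and Apol7c, at 0.32, 0.33 and 0.34. Among the genes searched, none followed Il1a as closely as those named followed Il1b or Tnf. Genes below a mean of 1 FPKM, predicted or unnamed genes, and immunoglobulin and T cell receptor segments were left out of the search.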

How the data were processed

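RNA of total lung cells was measured in 9 libraries. Per the submitters' processing notes, Trimmomatic, HISAT2 and HTSeq were used with the build GRCm38.p6; which tool did which step, and in which version, is not given in the labels. The deposited values are FPKM per gene, which the authors scaled to library sizes 0.890 to 1.21 times the recovered read totals. Reads were recovered because FPKM times gene length came out as whole multiples of a single step per library for 100% of values. The tolerance was 0.01 reads for low counts and grew with the count for the highest, where the check is weaker.

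Genes with a mean of at least 0.2 FPKM were tested on log2(FPKM + 0.5) in 1 limma fit of all 9 libraries (limma 3.58.1, R 4.3.3, eBayes with trend, 6 residual degrees of freedom), with Benjamini-Hochberg adjustment over 17716 genes and calls below 0.05. Fold changes are on that scale, which understates changes of low genes. Groups came from the labels; nothing says that libraries are separate animals, so p-values measure the spread between libraries, which may be technical. Ratios were compared by exact permutation of log2 ratios, 12 comparisons in all, where a raw p of 0.1 becomes 0.13 after Benjamini-Hochberg adjustment. The members and lists were chosen with earlier results of these data known. Named were all 10 members, 12 partner genes, up to 4 called genes with the smallest p per pathway list and comparison, and the 3 nearest profiles of Il1a, Il1b and Tnf from a mean of 1 FPKM. Il1f9 and Il1rl2 were named in addition after their values were seen, to list every call of the interleukin-1 family. Several marker genes, such as Scgb1a1, S100a9, Cd8a, Hopx, Ager, Ear1, Fabp1 and Chil3, were likewise named for their level or call. The fit was tested on simulated data. In all, 17 other settings were tried: pseudocounts 0.1 and 1, no filter and a filter of 1, equal FPKM sums, quantile normalization, only 2 groups, limma-voom, and each of 9 libraries left out.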

Additional observations from a re-analysis of the deposited data

How the results depend on the processing

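No paired analysis was possible because the groups share no replicate numbers and the labels name no batch. Il18 kept its call in both knockout comparisons in all 17 other settings, and 0 of the 10 genes passed in WT OVA against WT PBS in any limma or limma-voom setting (2 at an unadjusted p below 0.05 as reported). The cause of the changes listed here was not tested. In WT OVA against WT PBS, the genes called over the table were 1 as reported, 2 with no filter, and 0 with a pseudocount of 0.1, a filter of 1, equal FPKM sums, quantile normalization, only the 2 groups and limma-voom; with a library left out they were 0 to 14, and members 0 to 0. In DJ-1 KO OVA against WT OVA, 2510 became 645 with no filter, 5034 with equal sums, 1131 with only the 2 groups and 286 to 5694 with a library left out. The lowest of these was without DJ1_KO_OVA_267 and the highest without DJ1_KO_OVA_266. Members called were 2 as reported, 1 with no filter and with only the 2 groups, and 1 to 4 with a library left out. In DJ-1 KO OVA against WT PBS, 1513 became 669 with no filter, 700 with only the 2 groups and 436 (without WT PBS replicate 1) to 3897 (without DJ1_KO_OVA_266) with a library left out; members called were 1 as reported, 4 with equal sums and with quantile normalization, 2 with limma-voom, and 1 to 3 with a library left out.

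The sign of some differences that had not passed turned, on the log2 scale. With equal sums, DJ-1 KO OVA against WT OVA became 0.0034 for Gsdmd, 0.17 for Il18r1, 0.14 for Il1a, 0.33 for Il6, 0.50 for Nlrp3, 0.072 for Pycard, 0.52 for Rela, 0.33 for Tnf and 0.25 for Tnfrsf1a. WT OVA against WT PBS became -0.041 for Il18, -0.19 for Il1rn, -0.13 for Il33, -0.23 for Ninj1 and -0.0092 for Pycard, and Pycard became 0.062 in DJ-1 KO OVA against WT PBS. With quantile normalization, DJ-1 KO OVA against WT OVA became 0.11 for Il1a, 0.051 for Il6, 0.15 for Nlrp3, 0.16 for Rela and 0.44 for Tnf. WT OVA against WT PBS became 0.0056 for Il1r1 and -0.038 for Ninj1, and Nfkbia became 0.17 in DJ-1 KO OVA against WT PBS. With a library left out, the differences that turned ran over these lowest and highest values. In WT OVA against WT PBS they were -0.085 to 0.48 for Il18, -0.23 to 0.17 for Il1b, -0.099 to 0.071 for Il1r1, -0.016 to 0.25 for Il1rn, -0.067 to 0.18 for Ninj1 and -0.33 to 0.0069 for P2rx7. For the knockout against WT PBS they were -0.0021 to 0.18 for Il18r1, -0.0032 to 0.30 for Il1rap and -0.46 to 0.023 for Pycard. In DJ-1 KO OVA against WT OVA they were -0.68 to 0.056 for Il6, -0.14 to 0.27 for Nfkbia, -0.30 to 0.036 for Nlrp3, -0.20 to 0.061 for Rela and -0.62 to 0.13 for Tnf. Depth limits the lowest genes named: Lta rests on 22 to 72 reads per library and Il18bp on 82 to 292.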
